A study of Mus musculus with 4 samples.

Results

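The nuclear-encoded genes of oxidative phosphorylation were described here in *Hmx3*-derived cells with and without *Dnmt1*. They comprised every protein-coding gene whose symbol starts with *Nduf*, *Uqcr* or *Atp5*, the *Sdh* genes a to d, and the *Cox* genes numbered 4 to 8 followed by a letter, in the GENCODE M21 annotation of the GRCm38 mouse genome. This choice by name took 94 of the 55573 genes in the count lists, with 46 genes for complex I, 4 for complex II, 8 for complex III, 18 for complex IV and 18 for complex V. It used no measured value.

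Oxidative phosphorylation is carried out in the inner mitochondrial membrane. Complexes I and II pass electrons from NADH and succinate to ubiquinone, complex III hands them to cytochrome c, complex IV reduces oxygen, and complex V, the ATP synthase, makes ATP from the proton gradient that complexes I, III and IV build. A small set of subunits is encoded by the mitochondrial genome and the rest by the nucleus, so that the nuclear genes have to be expressed in step with the mitochondrial ones. Neurons rely heavily on this pathway, whereas neural progenitors and astrocytes draw more on glycolysis.

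The RNA came from tdTomato-positive cells of the basal telencephalon of mouse embryos at E16, sorted by flow cytometry (FACS), where the day of insemination counted as E1. Both genotypes carried the *Hmx3-Cre* driver and the tdTomato reporter, so that sorted cells are those with a history of *Hmx3* expression, and no other treatment was given. The knockout (KO) carried the *Dnmt1* loxP2 allele, in which Cre removes exons 4 and 5 of *Dnmt1* and leaves a null allele, and the controls were wild type (WT) for *Dnmt1*. There were 2 libraries per genotype, made from pools of 12 WT and 6 KO embryos. The sample labels call the libraries biological replicates and the study's methods call them technical duplicates of pooled samples, so the p-values measure only the spread between these libraries.

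Total counts ran from 8075102 to 9995968 per library, at which 3 counts equal 0.294 to 0.372 CPM (reads of a gene relative to the TMM-scaled size of its library), and such floors cover counting error only. *Dnmt1* was at 385 and 446 CPM in WT against 283 and 281 CPM in KO (difference -0.56 on the log2 scale, edgeR adjusted p = 0.0511), counted over the whole gene and not over the deleted exons alone. WT replicate 1 stood apart, with 8.66% of its counts in mitochondrial rRNA against 1.51% to 2.32% in the other 3 libraries. Markers of several other cell types moved with genotype. The summed level of 10 astrocyte markers was 242 to 263 CPM in WT and 3323 to 3541 CPM in KO, with 10 of 10 called higher. Of 6 oligodendrocyte markers 5 were called higher, and of 7 mural cell markers 7. Smaller lists moved as well, with *Olig2* of 5 tested markers of oligodendrocyte precursors and *Csf1r* of 5 tested microglial markers called higher (summed level of the microglial list 26.1 and 29.7 CPM in WT and 49.9 and 56.3 CPM in KO). In the other direction, *Ttr*, a choroid plexus marker, fell from 40.8 and 55.3 CPM in WT to 0.951 and 1.1 CPM in KO (edgeR adjusted p = 1.77e-05), and *Hbb-bs*, of 5 erythroid markers, fell from 15.9 and 16.9 to 7.13 and 6.28 CPM (edgeR adjusted p = 0.0184). The summed level of 8 general neuron markers was 5544 to 6096 CPM in WT and 4130 to 4178 CPM in KO, with *Syt1* and *Stmn2* called lower, and 0 of the 7 markers of GABAergic interneurons, the labelled cell type, were called (edgeR, DESeq2 and limma-voom), with 2 lower at an unadjusted p under 0.05. With the libraries corrected for transcript length and GC content, 6 of the 8 neuron markers and 1 of the 7 interneuron markers were called lower. No marker of these lists was at 0 in all libraries. The part of these cells in the results below was not tested, and in bulk RNA fewer cells of a type and less RNA per cell cannot be told apart.

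No nuclear-encoded oxidative phosphorylation gene differed between KO and WT past the threshold. Of the 94 genes, 87 passed the expression filter. Of these 87, 0 were called higher and 0 were called lower in KO (edgeR quasi-likelihood test, Benjamini-Hochberg adjusted p under 0.05), while 7.33% of all 16832 tested genes were called higher and 0.570% lower. The smallest adjusted p among the 87 was 0.109. At an unadjusted p under 0.05, 5 of them were lower and 0 higher, while 8.01% of all tested genes were lower and 14.6% higher at this level. The 5 were *Ndufb6*, *Ndufc2*, *Ndufv2*, *Cox7a2l* and *Atp5f1*. With DESeq2 and with limma-voom 0 were called and 4 were lower at an unadjusted p under 0.05, where DESeq2 called 7.40% of all genes higher and 1.47% lower and limma-voom 7.21% and 0.594%. The log2 fold changes were mostly on the lower side. They were below 0 for 71 of the 87 genes, with a median of -0.17, beside a median of -0.026 over all tested genes. The standard errors had a median of 0.20, and the 95% intervals of 72 of the 87 genes lay wholly between -1 and 1, so that for those genes a 2-fold difference in either direction fell outside the interval.

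In their summed level a single library stood above the others. The 94 genes together took 4756 CPM in WT 1, 5734 CPM in WT 2, 4742 CPM in KO 1 and 4650 CPM in KO 2. WT 2 alone was high, at 1.21 times the next library, and WT 1 lay with the KO libraries, the highest and the lowest of these 3 being 1.023-fold apart. The TMM factor was 0.9028 in WT 1 and 1.024, 1.046 and 1.034 in WT 2, KO 1 and KO 2. The place of WT 1 beside the KO libraries thus depends on this scaling. As group means these are 5245 ± 692 CPM in WT and 4696 ± 65.1 CPM in KO (SD, n = 2). WT 2 was the highest library for 58 of the 87 genes (66.7%), against 25.8% of all tested genes.

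**Figure D1:**
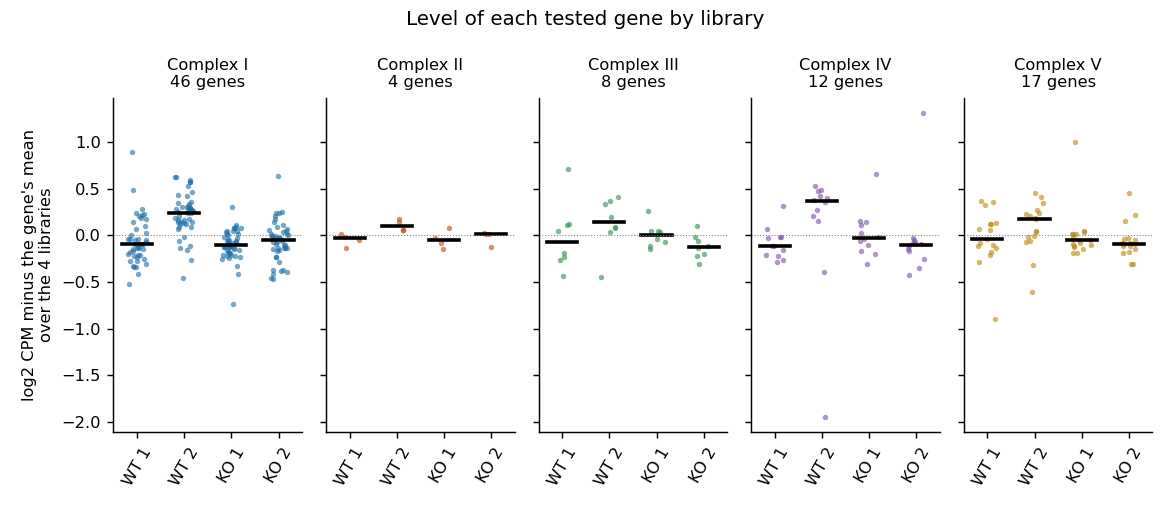
The plot shows, for each tested gene (points) and each library (x axis), the log2 CPM minus that gene's mean over the 4 libraries (y axis), in 1 panel per complex, with the median of the complex as a bar. In each panel WT 2 has the highest median, while WT 1 lies near KO 1 and KO 2.

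The order of the libraries was also uneven. For 24 of the 87 genes KO 1 and KO 2 were both lower than either WT library, where 25.2% of all tested genes were placed so, and for 5 they were both higher, where the share of all tested genes was 28.3%. For 34 genes both KO libraries lay between the WT libraries, an order that 15.7% of all tested genes had, and in 29 of these 34 it was WT 2 that was above. The WT libraries differed by a median of 0.31 on the log2 scale (WT 2 above WT 1), with 67 of 87 genes higher in WT 2, beside a median of -0.029 over all tested genes. The KO libraries differed by a median of -0.036 (KO 2 against KO 1).

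The calls depended on which WT library was kept, and a fit without a WT library assumes that the remaining one varies like the KO pair. Without WT replicate 1, 25 of the 89 genes then tested were called lower and 0 higher, beside 7.15% of all genes called lower in that fit, and the median log2 fold change was -0.25. Complex I held 11 of the 25, complex IV 8, complex V 4 and complex III 2, and the 8 were *Cox4i1*, *Cox5b*, *Cox6a1*, *Cox6b1*, *Cox7a2l*, *Cox7b*, *Cox7c* and *Cox8a*. Without WT replicate 2, 6 of 89 were called lower (12.0% of all genes) and 2 higher (11.2% of all genes), and the median was 0.0013. The 6 were *Ndufaf4*, *Ndufc2*, *Ndufv2*, *Uqcrb*, *Atp5f1* and *Atp5j*, and the 2 were *Ndufv1* and *Uqcr10*. The 2 genes *Ndufc2* and *Ndufv2* were called lower in both fits, which is 2 of 25 and 2 of 6. Without KO replicate 1 or KO replicate 2, 0 were called in either direction, with 3 and 0 lower at an unadjusted p under 0.05. In these fits 5.35% and 5.08% of all genes were called higher and 0.656% and 0.288% lower.

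The difference between the WT libraries moved with base composition. Across the 87 genes, the log2 difference between WT 2 and WT 1 had a Pearson correlation of 0.479 with the GC content of the transcript (Spearman 0.496) and of -0.266 with log2 transcript length (Spearman -0.373). These are correlations across genes of the same 2 libraries, and genes are not independent replicates. Across all 16822 tested genes with a transcript, the correlation with GC content was 0.499. The 24 genes with a GC content of at least 55% had a median difference of 0.49, with 22 of 24 higher in WT 2, while the 11 genes under 45% had a median of -0.13, with 4 of 11 higher in WT 2. The log2 fold changes of KO against WT also rose with GC content. Their median was -0.15 at a GC content of at least 55% and -0.27 under 45%. Across the 87 genes their Pearson correlation with GC content was 0.276 (Spearman 0.227). At like GC content the oxidative phosphorylation genes lay above the median of all tested genes in most classes. The values were 0.31 against 0.11 between 50% and 55% and 0.48 against 0.21 between 55% and 60%. Between 35% and 40%, a class with 1 of these genes, the order was reversed (-1.12 against -0.78). Their transcripts were also shorter than most, with a median of 908 bases against 2864. The part of base composition and length in the shift of WT 2 was not tested beyond the following fit. With each library corrected for trends with length and GC content, 4 genes were called lower and 0 higher (5.39% of all genes were called lower in that fit), and the median log2 fold change was -0.18. The 4 were *Ndufb6*, *Ndufc2*, *Ndufb9* and *Cox6a1*. With the replicate number as a further term (the replicate block), 1 gene was called lower, where 3.68% of all genes were, and with the correction and the block together 7 were, where 6.47% of all genes were.

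**Figure D2:**
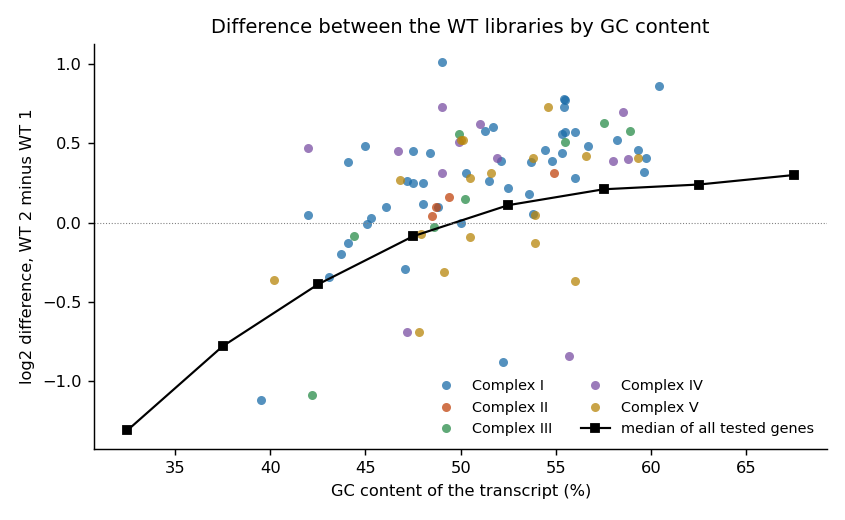
The plot shows the log2 difference between WT 2 and WT 1 (y axis) against the GC content of the transcript in percent (x axis) for the 87 tested genes (points, coloured by complex), and the median of all tested genes in 5-percent classes of GC content as a black line. Points rise with GC content as the line does, and most lie above it.

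Complex I, NADH dehydrogenase, is the largest complex and takes electrons from NADH through a chain of iron-sulphur clusters to ubiquinone. All 46 of its genes were tested, 0 were called, and the median log2 fold change was -0.18 with 35 of 46 below 0. Their summed level was 1547, 1905, 1550 and 1546 CPM in WT 1, WT 2, KO 1 and KO 2. The log2 fold changes of the nuclear core subunits lay from -0.49 to 0.19, and the median was -0.14 for the 31 accessory subunits and -0.31 for the 8 assembly factors of the *Ndufaf* series, with ranges that overlapped throughout. Per length, the core and accessory subunits were at a median of 36.2 and 41.7 CPM per kb of transcript, and the assembly factors, which are needed in small amounts, at 10.3.

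Among the core subunits, *Ndufv1*, which binds NADH and the flavin, was at 70.4 and 98.1 CPM in WT and 94.6 and 94.5 CPM in KO (log2 fold change 0.17, edgeR adjusted p = 0.634). Both KO libraries lay between the WT libraries. *Ndufv2*, which carries an iron-sulphur cluster beside the flavin, was at 81.3 and 84.1 CPM in WT and 65.7 and 52.4 CPM in KO (log2 fold change -0.49, standard error 0.16, edgeR adjusted p = 0.121). Here both KO libraries were lower than both WT libraries, and the WT libraries were close to each other. *Ndufs1*, the largest subunit, was at 95.6 and 94.9 CPM in WT and 90.8 and 75.9 CPM in KO, again without overlap (log2 fold change -0.19, edgeR adjusted p = 0.497). *Ndufs3* and the iron-sulphur proteins *Ndufs7* and *Ndufs8* had log2 fold changes of 0.19, 0.17 and -0.21, with edgeR adjusted p-values from 0.602 to 0.612. These subunits thus went in both directions, and no value passed the test with the 4 libraries and genotype as the only term. The edgeR adjusted p of *Ndufv2* was 0.0443 with the replicate block and 0.011 with either WT library left out, but 0.138 after the length and GC correction and 0.094 with that correction and the block. That of *Ndufv1* was 0.0374 without WT replicate 2 (log2 fold change 0.42).

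*Ndufb6* had the lowest log2 fold change of all 87 genes. It encodes an accessory subunit of the membrane arm and lies at chr4:40270591-40279421 (GRCm38, minus strand). It had 115 and 200 reads in WT and 80 and 88 reads in KO, or 14.3 and 19.6 CPM against 9.51 and 9.69 CPM. The KO libraries were nearly equal and both below WT, while the WT libraries differed from each other by 0.44 on the log2 scale. The log2 fold change was -0.82 (standard error 0.26, 95% interval -1.42 to -0.22, edgeR adjusted p = 0.109), with 0.0316 after the length and GC correction and 0.000782 without WT replicate 1, but 0.141 without WT replicate 2 and 0.0546 with the replicate block. Exons of *Smim27* on the opposite strand cover 39% of its exonic bases, and that gene had 9 or 10 reads in each library. *Ndufc2*, another subunit of the membrane arm, was at 51.1 and 54.7 CPM in WT and 40.4 and 33.8 CPM in KO (log2 fold change -0.51, standard error 0.16, edgeR adjusted p = 0.111). The groups did not overlap, and the edgeR adjusted p was 0.00638 without WT replicate 1, 0.0318 without WT replicate 2 and 0.0159 after the length and GC correction, but 0.0539 with the replicate block.

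At the other end, *Ndufab1*, the mitochondrial acyl carrier protein that is also a complex I subunit, had the highest log2 fold change of complex I, with 109 and 141 reads in WT and 157 and 137 reads in KO (0.30, standard error 0.23, edgeR adjusted p = 0.48). The assembly factor *Ndufaf4* had 239 reads in WT 1 and 137, 121 and 105 reads in WT 2, KO 1 and KO 2, so that WT 1 alone was high, the reverse of most genes here. At 39.5% it had the lowest GC content of the 87. *Ndufs5* varied more within genotypes than between them, with 2.48 and 5.49 CPM in WT and 2.14 and 5.51 CPM in KO.

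Complex II, succinate dehydrogenase, is the only complex made by the nucleus alone and also a step of the citric acid cycle. Its log2 fold changes had the narrowest range of the 5 complexes. The flavoprotein *Sdha* was at 168 and 173 CPM in WT and 158 and 169 CPM in KO, and the membrane anchor *Sdhc* at 54.7 and 58.7 CPM in WT and 55.2 and 57.2 CPM in KO. Their groups overlapped. The iron-sulphur protein *Sdhb* was at 75.2 and 93.4 CPM in WT and 87.3 and 75.6 CPM in KO, and the second anchor *Sdhd* at 40.8 and 45.6 CPM in WT and 37.1 and 41.6 CPM in KO. The 4 log2 fold changes ran from -0.13 to -0.015, no value passed the test (smallest edgeR adjusted p = 0.666), and WT 2 was the highest library for all 4 genes.

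Complex III, the cytochrome bc1 complex, had 8 tested genes, of which 7 had a log2 fold change below 0 (median -0.20) and 0 were called. *Uqcr10*, a small subunit at the edge of the complex, was the exception above 0, with 185 and 336 reads in WT and 315 and 304 reads in KO, or 23 and 32.9 CPM against 37.4 and 33.5 CPM (log2 fold change 0.34, standard error 0.21, edgeR adjusted p = 0.383). Both KO libraries lay above WT, but KO 2 and WT 2 were nearly equal. Without WT replicate 2 the log2 fold change was 0.61 (edgeR adjusted p = 0.015, called higher), and without WT replicate 1 it was 0.10 (edgeR adjusted p = 0.754). *Uqcrb*, which takes part in ubiquinone binding, had 102 reads in WT 1 and 58, 67 and 57 in WT 2, KO 1 and KO 2 (log2 fold change -0.35, standard error 0.41, edgeR adjusted p = 0.651). WT 1 stood alone here, as it did for *Ndufaf4*, and without it the sign turned, with a log2 fold change of 0.32, while without WT replicate 2 it was -0.84 (edgeR adjusted p = 0.0323). *Uqcrh*, the hinge protein and the subunit with the highest level per length, was at 57.6 and 84.9 CPM in WT and 60.8 and 63.1 CPM in KO. The Rieske iron-sulphur protein *Uqcrfs1* was at 71.5 and 70.2 CPM in WT and 63.1 and 60.2 CPM in KO (log2 fold change -0.20, edgeR adjusted p = 0.441), with no overlap between the groups.

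Complex IV, cytochrome c oxidase, differed most between the WT libraries. Its summed level was 597, 797, 631 and 592 CPM in WT 1, WT 2, KO 1 and KO 2, and the median difference between WT 2 and WT 1 was 0.43 on the log2 scale. Of 18 genes 12 were tested, 10 of these had a log2 fold change below 0 (median -0.20), and 0 were called. *Cox6a1*, the general form of subunit VIa, was at 74.4 and 98.1 CPM in WT and 61.2 and 73 CPM in KO (log2 fold change -0.36, standard error 0.18, edgeR adjusted p = 0.283), with 0.015 after the length and GC correction. *Cox7a2l*, which links complexes III and IV in supercomplexes, was at 37.4 and 53.5 CPM in WT and 33.3 and 32 CPM in KO (log2 fold change -0.48, standard error 0.20, edgeR adjusted p = 0.21). *Cox7c* had the lowest log2 fold change of the complex, with 80 and 140 reads in WT and 71 and 64 reads in KO (-0.62, standard error 0.29, edgeR adjusted p = 0.257). In these 3 genes the KO libraries lay below WT, but KO 2 in *Cox6a1* and KO 1 in *Cox7a2l* and *Cox7c* came close to WT 1. Without WT replicate 1 the edgeR adjusted p was 0.00455 for *Cox6a1*, 0.000383 for *Cox7a2l* and 0.0258 for *Cox7c*. Without WT replicate 2 none of these was called, with log2 fold changes of -0.16, -0.20 and -0.37 (edgeR adjusted p from 0.474 to 0.534).

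Several complex IV subunits exist as a general form and a form known from heart and muscle, lung or testis, and in these cells the general form carried nearly all reads. *Cox4i1*, the regulatory subunit, had 1158 and 1922 reads in WT and 1262 and 1323 reads in KO. Its lung form *Cox4i2* had 6 and 2 reads in WT and 15 and 4 reads in KO. The heart and muscle forms *Cox6a2* and *Cox8b* had at most 2 and 9 reads in any library, and the testis forms *Cox7b2* and *Cox8c* at most 1. *Cox7a1*, the heart and muscle form of subunit VIIa, had 3 and 6 reads in WT and 26 and 4 reads in KO, so that KO 1 alone was high. Of 4 muscle markers 1 was tested, *Myh6*, a myosin heavy chain of heart muscle. It rose from 6 and 4 reads in WT to 65 and 123 reads in KO (log2 fold change 4.23, edgeR adjusted p = 0.00161). The other markers, *Ckm*, *Actc1* and *Tnni3*, had at most 11 reads in any library and a lower mean CPM in KO than in WT. The part of muscle RNA in the counts of these forms was not tested. These 6 forms of complex IV subunits did not pass the expression filter and were not tested.

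*Cox6b2*, the testis form of subunit VIb, passed the filter only through the KO libraries, where it was high, with 0.745 and 0.196 CPM in WT and 1.19 and 1.87 CPM in KO. It had the highest log2 fold change of the 87 genes, at 1.74 (standard error 0.78, 95% interval -0.054 to 3.53, edgeR adjusted p = 0.233). It rested on 6 and 2 reads in WT and 10 and 17 reads in KO, and was 2.88 without WT replicate 1 and 1.02 without WT replicate 2, not called in either fit. All KO values were above all WT values, but the counts are small, and the general form *Cox6b1* had 727 and 1423 reads in WT and 825 and 901 reads in KO. *Ndufa4*, which was first assigned to complex I by name and is now counted with complex IV, was at 55.1 and 71.8 CPM in WT and 56.4 and 53.4 CPM in KO. Its relative *Ndufa4l2*, known from the hypoxia response, had 15 and 28 reads in WT and 22 and 26 reads in KO.

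**Figure D3:**
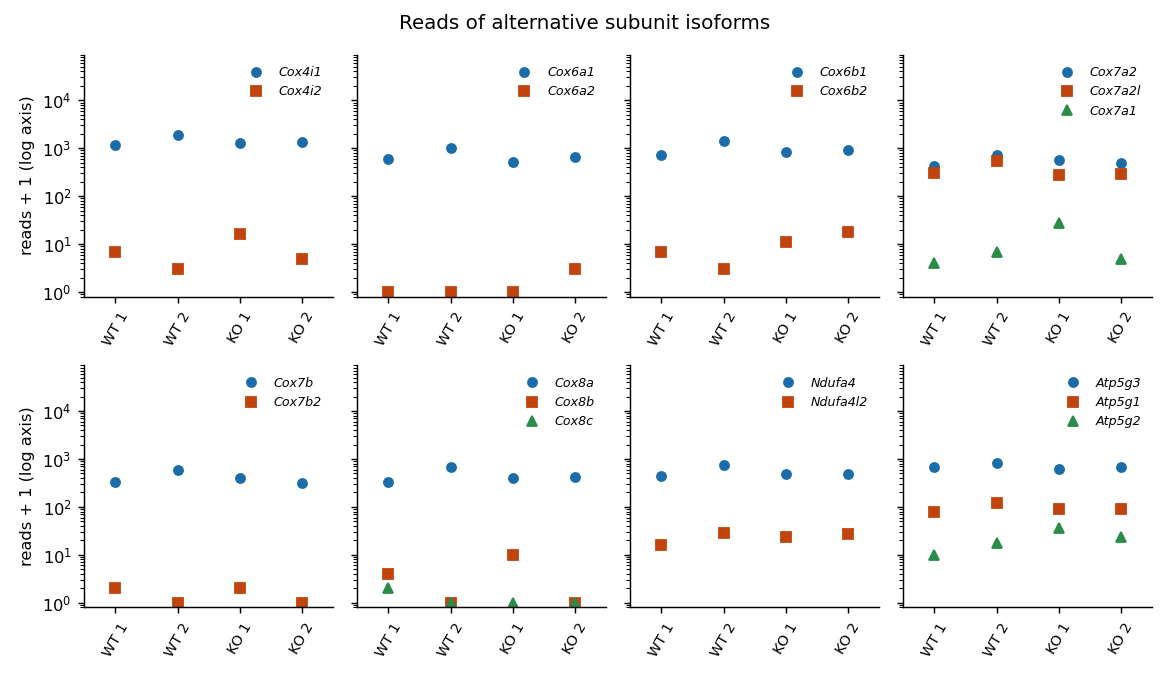
The plot shows reads + 1 (log y axis) in each library (x axis) for 8 families of alternative subunit forms, with 1 marker per gene. In each family the general form has at least 314 reads in every library, *Cox7a2l* has 280 to 546, and the other forms lie well below.

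Complex V, the ATP synthase, held the most abundant genes. *Atp5b*, the catalytic beta subunit, had 5232 and 8245 reads in WT and 5573 and 5871 reads in KO, and at 361 CPM per kb it ranked first among the 87 genes, followed by *Atp5a1*, the alpha subunit, with 244 CPM per kb. The level of *Atp5b* was 649 and 808 CPM in WT and 663 and 647 CPM in KO (log2 fold change -0.15, edgeR adjusted p = 0.595). WT 2 was high, and the other 3 libraries lay together. *Atp5a1* was likewise highest in WT 2, with 583 and 707 CPM in WT and 568 and 554 CPM in KO. Of the 17 tested genes 15 had a log2 fold change below 0 (median -0.15), and 0 were called.

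*Atp5f1*, the b subunit of the peripheral stalk, had the lowest log2 fold change of complex V, with 115 and 92.9 CPM in WT and 84.5 and 72.7 CPM in KO (-0.40, standard error 0.17, edgeR adjusted p = 0.205). The groups did not overlap, and unlike in most genes WT 1 was the highest library. Without WT replicate 2 the log2 fold change was -0.56 (edgeR adjusted p = 0.00137), and without WT replicate 1 the edgeR adjusted p was 0.271. *Atp5j*, coupling factor 6 of the same stalk, showed the same order with 43.8 and 33.9 CPM in WT and 32.9 and 27.6 CPM in KO (log2 fold change -0.36, edgeR adjusted p = 0.32). Its exons overlap those of *Gabpa* on the opposite strand over 12.7% of their length.

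The c subunit of the ATP synthase ring is made from 3 genes that encode the same mature protein. *Atp5g3* had 677 and 805 reads in WT and 606 and 677 reads in KO, *Atp5g1* had 78 and 120 in WT and 88 and 89 in KO, and *Atp5g2* had 9 and 17 in WT and 35 and 22 in KO. For *Atp5g2* this gave a log2 fold change of 1.22 (standard error 0.54, 95% interval -0.025 to 2.46, edgeR adjusted p = 0.229), the highest of complex V, and neither KO library overlapped with WT. It rested on few reads. With 9 reads in WT 1 it was not tested when 10 counts were required in every library. Its transcript of 731 bases has a match of 645 bases at 100% identity to the annotated pseudogene *Gm10175*, which had 0 reads in all libraries, so the count of *Atp5g2* is uncertain.

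**Figure D4:**
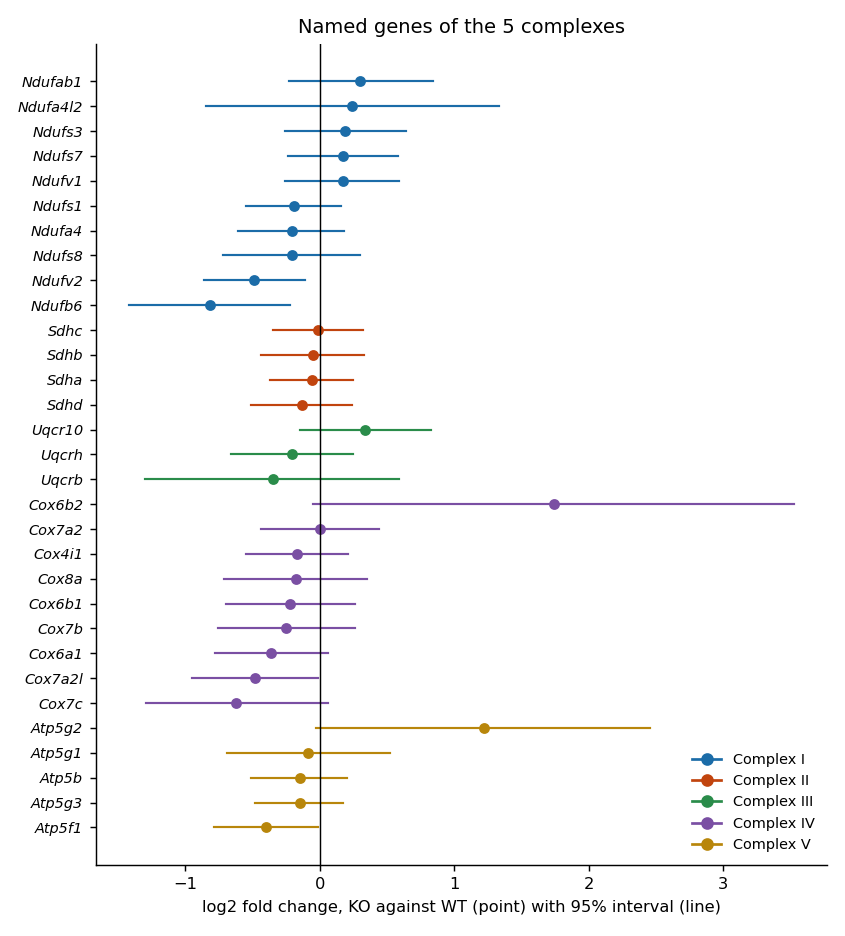
The plot shows the log2 fold change of KO against WT (x axis, point) with its 95% interval (line) for the 31 tested genes named by rule, grouped and coloured by complex. Most points lie a little left of 0 with intervals that reach across it, and *Cox6b2* and *Atp5g2*, the genes with the fewest reads, have the widest intervals on the right.

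Processed pseudogenes are common in this group of genes and bear on how they are counted. An annotated pseudogene with at least 95% identity over at least 200 bases was found for 22 of the 94 genes, with 8 such pseudogenes for *Atp5l*, 4 for *Atp5h* and 3 for *Uqcrb*. The pseudogenes of a gene had 62 reads at most over all 4 libraries. The 21 tested genes with a near-identical pseudogene had a median level of 23.2 CPM per kb, and the 66 without had 46.3. For *Cox7c*, *Atp5l* and *Atp5g2*, whose copies reach 99% identity over most of the transcript, the levels were 18.1, 16.1 and 3.2 CPM per kb. Reads that fit both copies may not have been counted, the treatment of such reads is not given in the sources used here, and levels of these genes are therefore uncertain. In addition, exons of 29 genes overlap an exon of a gene on the opposite strand, in 11 over more than 10% of their bases, and without a stated strand setting the reads cannot be told apart.

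The promoters of these genes are known to carry sites for NRF1, for the ETS factor GABP and for YY1, and short windows were searched for them (250 bases before to 50 after the start in RefSeq, GRCm38.p6, 1 window per gene). Windows were found for 74 genes. The NRF1 core GCATGCGC was found on either strand in 12 of 74 windows (16.2%) and in 3.79% of 16521 windows of all genes. The ETS site CCGGAAGT was found in 5 of 74 (6.76%, against 5.59%), and the YY1 site AAGATGGC in 9 of 74 (12.2%, against 3.27%). At least 1 of the 3 motifs was found in 25 of 74 windows (33.8%, against 11.9%). The motifs do not contain each other, although the NRF1 core is nearly palindromic and overlapping matches on both strands spell GCGCATGCGC. A match is a description of the letters, not of binding.

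The YY1 matches had a common place. All 9 lay on the strand of the gene and after the start, at 10 to 38 bases, whereas 43.1% of the 559 YY1 matches in all windows lay after the start on that strand. In 8 of the 9, all but *Ndufaf8*, the ATG inside the motif is the annotated start codon of the gene. The stretches are printed from 5′ to 3′ on the strand of the gene with the motif in capitals, since they show the start codon inside the site.
*Ndufa3*, chr7:3617389-3617408, plus strand: aagaacAAGATGGCcgggag
*Ndufa9*, chr6:126849102-126849121, minus strand: tgggagAAGATGGCggccgc
*Ndufaf8*, chr11:120098938-120098957, plus strand: gggcccAAGATGGCggcgcc
*Ndufb8*, chr19:44555393-44555410, minus strand: aaggtgAAGATGGCtgcc
*Ndufc1*, chr3:51408920-51408939, minus strand: cggaacAAGATGGCgccgtc
*Ndufs4*, chr13:114388046-114388065, minus strand: tacaggAAGATGGCggcggt
*Ndufs6*, chr13:73328436-73328455, minus strand: accggcAAGATGGCggcggt
*Ndufs7*, chr10:80249467-80249486, plus strand: gaggccAAGATGGCggcgct
*Atp5j2*, chr5:145191505-145191524, minus strand: gacttcAAGATGGCgtcact

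The NRF1 matches were spread over the window, from -240 to 32 bases relative to the start. Stretches are shown for *Cox6a1* and *Ndufaf4*, whose calls changed with the processing, for *Sdhb* of complex II and for *Atp5g2*, with the NRF1 core or its overlapping pair in capitals, and for *Uqcrh* with the ETS site as read on the other strand.
*Cox6a1*, chr5:115349096-115349135, minus strand: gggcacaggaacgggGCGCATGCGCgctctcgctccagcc
*Ndufaf4*, chr4:24897955-24897994, plus strand: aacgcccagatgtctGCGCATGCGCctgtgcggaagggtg
*Sdhb*, chr4:140961201-140961240, plus strand: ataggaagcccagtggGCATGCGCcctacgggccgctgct
*Atp5g2*, chr15:102671065-102671104, minus strand: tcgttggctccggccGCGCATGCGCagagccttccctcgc
*Uqcrh*, chr4:116075071-116075110, minus strand: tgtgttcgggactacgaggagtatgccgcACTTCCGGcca

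**Figure D5:**
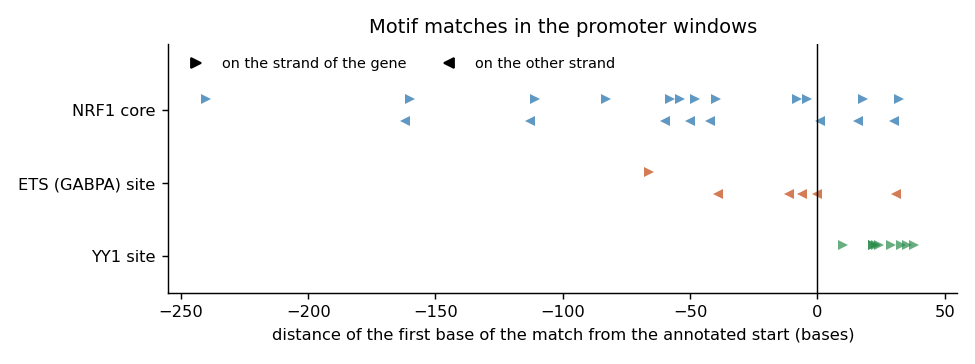
The plot shows the distance in bases from the annotated start to the first base of each motif match (x axis) in the promoter windows of 74 genes, for 3 motifs (rows), with right-pointing markers for matches on the strand of the gene and left-pointing markers for the other strand. The NRF1 matches spread over the window, whereas all YY1 matches lie just after the start.

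The factors that read these motifs were measured in the same libraries. *Nrf1* was at 64.7 and 76.4 CPM in WT and 73.8 and 78.6 CPM in KO (log2 fold change 0.11, edgeR adjusted p = 0.714). *Yy1* was at 132 and 126 CPM in WT and 102 and 97.9 CPM in KO (log2 fold change -0.37, edgeR adjusted p = 0.16), and *Gabpa* at 67.2 and 65.5 CPM in WT and 54.3 and 48.3 CPM in KO (log2 fold change -0.37, edgeR adjusted p = 0.189). For *Yy1* and *Gabpa* KO lay below WT without overlap, but neither passed the test. After the length and GC correction the edgeR adjusted p was 0.0297 for *Yy1*, called lower, and 0.414 for *Gabpa*.

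Of the 16 regulators of mitochondrial biogenesis that were measured, 2 were called higher in KO and 0 lower (7.33% and 0.570% of all tested genes), and after the length and GC correction 2 were called higher (12.0% of all genes in that fit) and 1, *Yy1*, lower (5.39%). *Ppargc1a*, the coactivator PGC-1alpha that drives mitochondrial biogenesis, rose from 5.71 and 6.96 CPM in WT to 21.3 and 23.2 CPM in KO (log2 fold change 1.81, standard error 0.25, edgeR adjusted p = 0.00282). *Esrra*, a nuclear receptor that works with it, rose from 17.8 and 21.8 CPM to 36.4 and 33.4 CPM (log2 fold change 0.81, standard error 0.19, edgeR adjusted p = 0.0389). Without KO replicate 1 or KO replicate 2 the edgeR adjusted p of *Esrra* was 0.242 and 0.145. *Tfam*, which packs and transcribes mitochondrial DNA, was at 43.2 and 31.2 CPM in WT and 29.1 and 30 CPM in KO (log2 fold change -0.33, edgeR adjusted p = 0.373). The 2 that rose did so in libraries where astrocyte, oligodendrocyte and mural cell markers were also higher, whose part was not tested.

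Of 18 tested complex IV assembly genes and 13 assembly genes of complexes II, III and V, 0 were called in either direction by edgeR, DESeq2 or limma-voom, with medians of -0.11 and -0.21, and 1 and 0 were past an unadjusted p of 0.05. *Cox10*, which makes the haem of complex IV, was that 1, with 10.1 and 13.1 CPM in WT and 20.3 and 22 CPM in KO (log2 fold change 0.86, edgeR adjusted p = 0.067, or 0.0229 with the replicate block and 0.0163 after the length and GC correction). The cytochrome c1 gene *Cyc1*, the haem subunit of complex III whose symbol lies outside the rule, was at 71.6 and 80.1 CPM in WT and 79.5 and 91 CPM in KO (log2 fold change 0.17, edgeR adjusted p = 0.559). *Cycs*, cytochrome c itself, had 51 and 32 reads in WT and 16 in each KO library (log2 fold change -1.35, standard error 0.50, edgeR adjusted p = 0.158). The edgeR adjusted p was 0.125 with the replicate block and 0.105 after the length and GC correction.

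The complexes are fed by the citric acid cycle and by glycolysis. Of 13 genes of the citric acid cycle 0 were called by edgeR, DESeq2 or limma-voom and 0 were past an unadjusted p of 0.05 (median log2 fold change -0.068), with *Cs*, citrate synthase, at 187 and 203 CPM in WT and 189 and 201 CPM in KO. Of 17 glycolysis genes 1 was called higher (7.33% of all tested genes were) and 0 lower, with 2 called by DESeq2 and 2 by limma-voom. It was *Aldoc*, an aldolase that marks astrocytes in brain, which rose from 13.7 and 20.3 CPM to 330 and 350 CPM (log2 fold change 4.32, standard error 0.21, edgeR adjusted p = 1.18e-05). The phosphofructokinases *Pfkp* and *Pfkm* had log2 fold changes of 0.52 and 0.53 (edgeR adjusted p = 0.0546 and 0.0958), and the median over the 17 genes was 0.21. Both were called higher with the replicate block, as were 9.65% of all genes (edgeR adjusted p = 0.0165 and 0.0163), and after the length and GC correction (0.0012 and 0.00585), when *Gpi1*, glucose-6-phosphate isomerase, was also called (0.0443).

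The mitochondrially encoded subunits ran opposite to the nuclear ones between the WT libraries. The summed level of the 7 with reads was 9921, 4269, 3936 and 3283 CPM in WT 1, WT 2, KO 1 and KO 2, with WT 1 alone high. Of 13 genes 7 were tested, 0 were called by edgeR or limma-voom and 1 by DESeq2, with 4 lower at an unadjusted p under 0.05. The other 6 are listed at 0 in every library. These zeros stand beside 12674 to 36196 reads of *mt-Co1*, and whether reads were lost in counting was not tested. With the replicate block, and again after the length and GC correction, 4 were called lower, where 3.68% and 5.39% of all genes were. They were *mt-Nd1*, *mt-Nd2*, *mt-Nd6* and *mt-Co1* (largest edgeR adjusted p = 0.0324 and 0.049, both for *mt-Nd2*).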

How the data were processed

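For each of the 4 libraries the authors deposited a list of raw counts, 1 per Ensembl gene. The submitters' processing notes name CASAVA 1.8.2, STAR 2.5.2a and featureCounts 1.5.0-p1 and the build GRCm38; the annotation, the strand setting and the treatment of reads with several matches are not given in the sources used here. Gene symbols, positions, lengths and GC content came from GENCODE M21 (55480 of 55573 identifiers matched), with 1 principal transcript per gene.

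Counts were filtered with edgeR's expression filter, scaled by TMM and fitted over all 16832 genes with the quasi-likelihood test of edgeR 4.0.16 (with limma 3.58.1 under R 4.3.3). Genotype was the only term, and a Benjamini-Hochberg adjusted p under 0.05 was a call. Standard errors came from the test statistic. Intervals cover 95% for each gene alone. CPM per kb is the mean CPM of the 4 libraries over transcript length. Differences between libraries used log2(CPM + 0.5). Near-identical copies were sought with BLAST 2.17.0.

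The genes and the lists set beside them were chosen with earlier results of these data known. Named genes are, per complex, those with the highest and lowest log2 fold change and the highest CPM per kb, the *Sdh* genes, the core subunits of complex I and the isoform families. A gene among them is not reported here. Any other gene was named with its values known. DESeq2 1.42.0, limma-voom, other scalings and filters, the replicate number as a block, a length and GC correction and leaving out each library were tried as alternatives. On simulated counts over 16349 genes, edgeR recovered 94% and DESeq2 83.5% of genes changed by 2 on the log2 scale. These counts had a common dispersion and no shift between the WT libraries. Smaller changes, like most of those above, were not simulated, so these shares do not bear on them.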

Additional observations from a re-analysis of the deposited data

How the results depend on the processing

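The count of 0 oxidative phosphorylation genes called higher held under all 11 other settings fixed at the start that kept the 4 libraries and under thresholds of 0.01 and 0.1, and leaving out a library gave 0 to 2. The count of 0 called lower held under other scalings, filters and tests (DESeq2, limma-voom) and under both thresholds. It was 1 with the replicate block (*Ndufv2*, complex I), 4 with the length and GC correction (complex I 3, complex IV 1) and 7 with both (complex I 4, complex IV 2, complex V 1; 6.47% of all genes), and 0 to 25 with a library left out. The replicate numbers have no source but the labels, and the deviations of same-numbered libraries correlated at 0.137 across genes, so a pairing is neither given nor settled by the 2 pairs. Over all genes the block moved the calls from 1233 higher and 96 lower to 1625 and 619. Per complex, leaving out a library gave 0 to 11 lower for complex I, 0 to 2 for complex III, 0 to 8 for complex IV and 0 to 4 for complex V, and 0 to 1 higher for complexes I and III. The cause was not tested. The median log2 fold change was -0.25 to 0.0013 with a library left out and within the spread between libraries of 0.17 under these settings. Scaling by library size alone moved the median of all genes to 0.084, and that of the oxidative phosphorylation genes to -0.069, with 55 of 87 below 0. The length and GC correction was first run by least squares without centring the libraries again. This moved the median of all genes to -0.25, with 4624 genes lower, and gave 47 lower oxidative phosphorylation genes and a median of -0.44, and it was replaced by the robust fit after these values were seen. Of 339 values of the 31 named genes with all libraries kept, 318 held their direction and side of the threshold, 7 newly passed it and 14 changed sign, all near 0. With library size alone *Atp5g1* was at 0.018, *Cox7a2* at 0.10, *Sdha* at 0.048, *Sdhb* at 0.05 and *Sdhc* at 0.093. With the upper quartile *Cox7a2* was at 0.035 and *Sdhc* at 0.025, and with at least 10 counts in every library at 0.035 and 0.022. *Cox7a2* was also at 0.00058 without mitochondrial and rRNA genes, 0.0027 without a filter and 0.0033 with the replicate block. With the length and GC correction *Sdhc* was at 0.004, and with the block added at 0.0054. With a library left out, the log2 fold changes ran from -0.31 to 0.00033 for *Atp5b*, -0.22 to 0.054 for *Atp5g1*, -0.36 to 0.03 for *Cox4i1*, -0.51 to 0.12 for *Cox6b1*, -0.20 to 0.21 for *Cox7a2*, -0.49 to 0.0013 for *Cox7b*, -0.49 to 0.21 for *Cox8a*, -0.0084 to 0.54 for *Ndufa4l2*, -0.44 to 0.0025 for *Ndufs8*, -0.06 to 0.42 for *Ndufv1*, -0.21 to 0.10 for *Sdhb*, -0.071 to 0.026 for *Sdhc*, -0.84 to 0.32 for *Uqcrb* and -0.46 to 0.094 for *Uqcrh*.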

Other observations

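Besides the 94 protein-coding genes, 13 other annotated genes had symbols of the same form. Of these 12 are processed pseudogenes with at most 3 reads in any library. The exception was *Ndufb1-ps*, annotated as a long non-coding RNA from a bidirectional promoter, with 193 and 142 reads in WT and 230 and 113 reads in KO, or 24 and 13.9 CPM against 27.3 and 12.4 CPM (log2 fold change 0.075, edgeR adjusted p = 0.934). Its libraries were split by replicate number and not by genotype. A second annotated gene with the symbol *Atp5o* had 0 reads in all 4 libraries.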
